A study of Homo sapiens with 4 samples.

Results

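The cadherin superfamily was examined in ChIP-seq data of T98G cells, an established human glioblastoma cell line. Members were the coding genes whose symbols mark them as cadherins (CDH), protocadherins (PCDH), desmocollins and desmogleins (DSC, DSG) or large relatives (FAT, DCHS, CELSR, CDHR). Of 29302 regions in the deposited table, 90 were assigned to such a gene, and they belonged to 36 of the 110 members that RefSeq lists as coding genes. All 90 carried a symbol found in RefSeq. Regions, and not expression, were measured, so nothing below is a level of a transcript or a protein.

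Of the 2 ChIP libraries, 1 came from T98G cells with the genotype label VECTOR, named pCW-vector in the table, and 1 from T98G cells with the genotype label LGP2 overexpressed. LGP2 belongs to the RIG-I-like receptors, helicases that sense viral RNA in the cytosol. Each had a matched input library, which was not analysed here, and the treatment label of all 4 samples reads overexpressed LGP2. The study lists the vector pair with its ChIP-seq against crotonylated lysine, a histone mark of active chromatin; for the LGP2 library no antibody is named in those sources. With 1 ChIP library a group, a difference below is one between 2 libraries; it has no replicates behind it and was not tested. Nothing states whether the LGP2-overexpressing cells were 1 clone or a pool.

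Classical cadherins join neighbouring cells by binding the same cadherin on the next cell through calcium-dependent extracellular repeats, and catenins tie their tails to actin. Type I members such as E-cadherin and N-cadherin make firm junctions, whereas type II members sort nerve cells and other tissues by adhesive type. Clustered protocadherins lie in tandem arrays, and each neuron uses its own choice of them to tell its processes from those of its neighbours. Loss of E-cadherin with gain of N-cadherin is the textbook sign of an epithelial-to-mesenchymal transition, while glial cells normally carry N-cadherin.

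The 90 regions were divided between the libraries much as all regions were. With LGP2 alone, 51 were called (56.7%, exact 95% interval 45.8 to 67.1%), against 54.9% of all 29302 regions and 56.5% of the 12612 regions of coding genes. The vector library alone had the other 39, and 0 were called in both. None of the 51 LGP2-only regions lay within 1000 bp of a vector-only region; the nearest pair, in CDH23, was 3.36 kb apart, and the median distance was 107.0 kb. These distances were not measured over all LGP2-only regions, so they are not read as a trait of the members. Calls in both libraries were rare over the whole table too, 79 of 29302 regions.

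The reads behind each region were few. Whole reads were recovered from the deposited densities, which fit a window of 2 kb around each region; the window size was inferred and not stated. The reads of both libraries together ran from 2 to 9 per member region with a median of 5.0, the same median as over all regions. Exact Poisson 95% intervals around such counts are wide: 0 reads allow up to 3.69, 4 reads span 1.09 to 10.2, and 7 reads span 2.81 to 14.4. In 0 of the 90 regions did the intervals of the 2 libraries lie apart, and this held for 16 of all 29302 regions (0.0546%). The intervals cover counting error only. The reads carried no stated molecular identifiers, so some may be copies of the same molecule.

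On the log2 scale of the densities, LGP2 over vector with 1 read added to each library, 33 member regions were at least 2-fold higher with LGP2 (36.7%, interval 26.8 to 47.5%). Over all regions this share was 29.5%. A further 20 were at least 2-fold lower (22.2%, interval 14.1 to 32.2%), against 25.2% of all regions. Both intervals held the share of all regions. The median log2 ratio was 0.48 over the members (interval -0.27 to 0.75) and 0.15 over all regions. Counts of 0 were also set at a floor of 3 reads, or at the other library's count where that was lower. The medians of the log2 read ratio were then 0.21 over the members and 0.00 over all regions. Since a region enters the table by being called, the ratio largely follows the call: it pointed to the calling library in 49 of the 51 regions called with LGP2 and in 36 of the 39 called with the vector. The plot of reads per region shows that most points lie on the side of their own library, with 1 to 8 regions sharing each pair of counts.

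**Figure D1:**
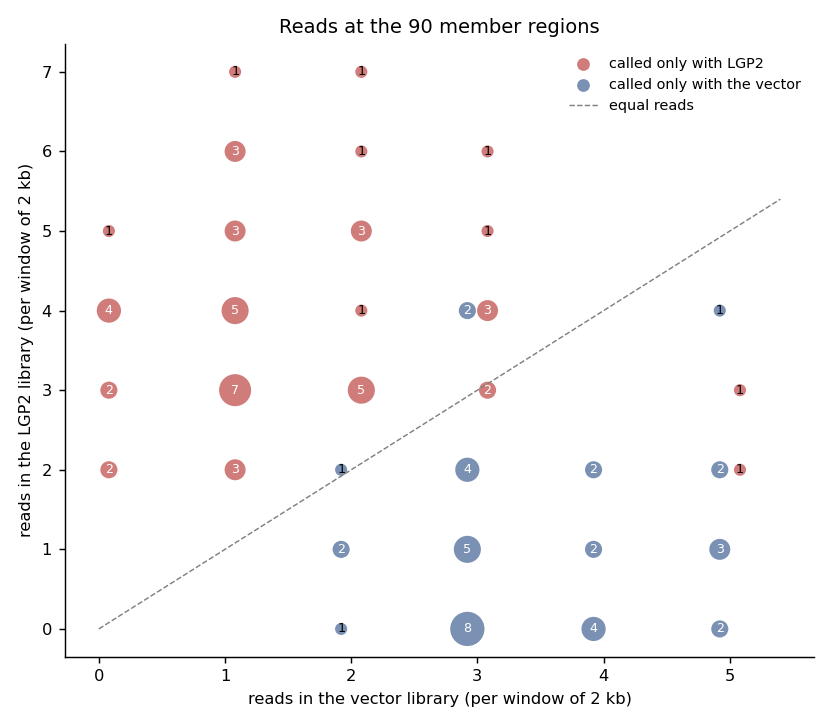
Reads in the LGP2 library (y axis) against reads in the vector library (x axis) at the 90 member regions, per window of 2 kb. Each disc is a pair of counts, its area and its number give how many regions share it, red discs were called only with LGP2 and blue discs only with the vector; points are set slightly apart sideways where they would coincide. No region exceeded 7 reads with LGP2 or 5 with the vector.

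Region numbers followed the families unevenly. The type II classical cadherins held the most, with 39 regions in 12 of 13 genes, followed by FAT, DCHS, CELSR and CDHR with 14 in 7 of 14 genes and by the type I classical cadherins with 12 in 3 of 5 genes. Protocadherins outside the clusters had 11 regions in 6 of 13 genes, other cadherins 10 in 4 of 5, and desmosomal cadherins 1 in 1 of 7. The 53 clustered protocadherins had 3. Over all members, 32.7% of genes had a region (interval 24.1 to 42.3%), against 34.2% of the 20056 coding genes of RefSeq. Outside the clusters the share was 57.9% of 57 genes (interval 44.1 to 70.9%), and these genes are long: members outside the clusters with a region had a median length of 158.0 kb, those without one 35.9 kb, and all coding genes 24.1 kb.

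**Figure D2:**
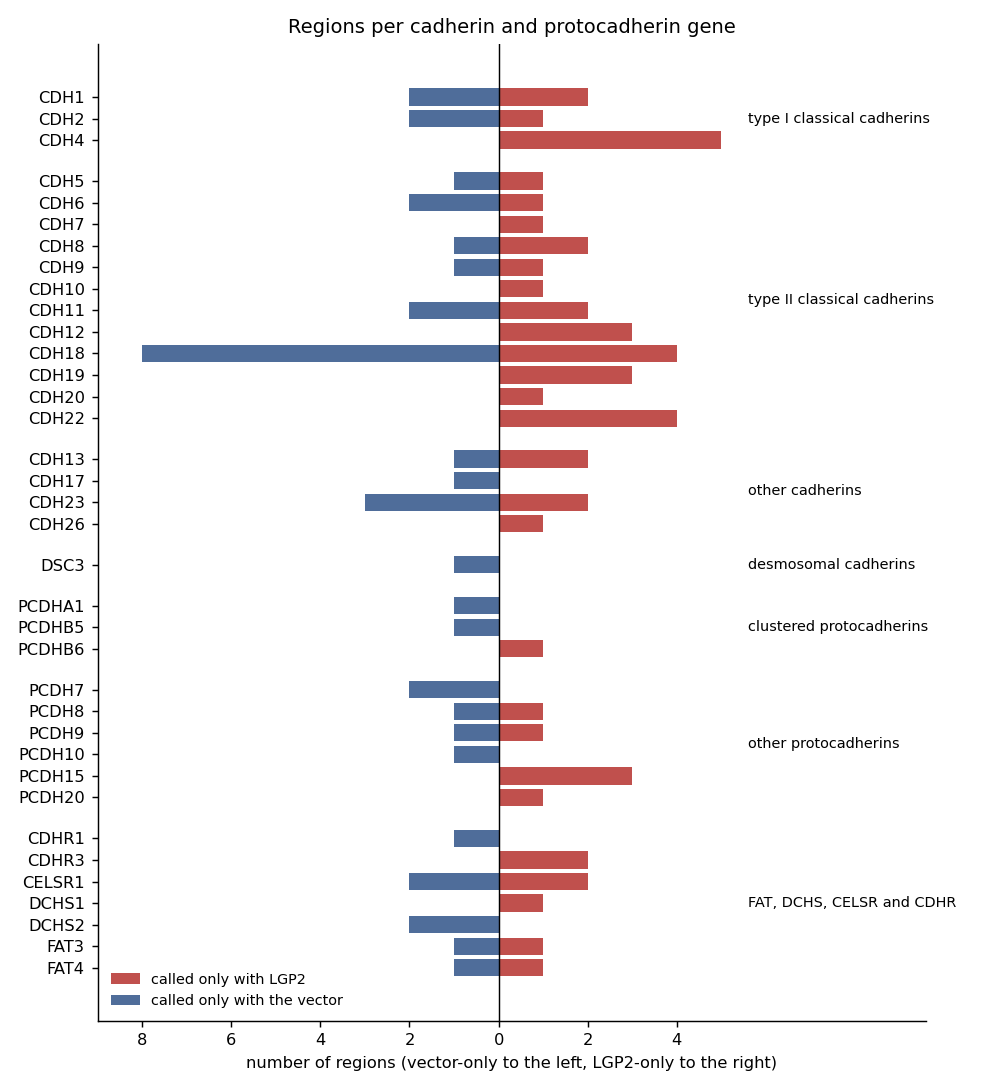
Number of regions (x axis) for each of the 36 member genes with a region, grouped by family; bars to the right count regions called only with LGP2 and bars to the left regions called only with the vector. CDH18 had the longest vector bar with 8 regions, and CDH4 the longest LGP2 bar with 5 and no vector region.

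Among the type I classical cadherins, 8 of 12 regions were called only with LGP2. CDH4, which encodes R-cadherin of retina and brain, held 5 of these and 0 vector-only regions. Its intron 2 carried the largest log2 ratio of all member regions (chr20:61259059-61259359), with 5 reads with LGP2 and 0 with the vector. The log2 ratio of 2.70 rests on the added read; against a floor of 3 reads for the vector library the region was at least 1.67-fold higher. Such a fold holds for the chosen floor alone, which lies under the 3.69 reads that a count of 0 allows. It also leaves out the counting error of the other library, whose interval of 1.62 to 11.7 for 5 reads overlapped that of 0 reads. A second CDH4 region had 7 reads against 1 (chr20:61597651-61597995, log2 ratio 2.15) and lay 1766 bp before an internal transcript start, 345.6 kb into the gene. The remaining 3 had 6 against 3, 5 against 3 and 3 against 3 reads, so that the LGP2 library was above the vector library in 4 of 5 regions and level with it in 1.

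CDH4 lies on chromosome 20, and there the libraries differed over the whole chromosome: 76.9% of its 763 regions were called only with LGP2 (interval 73.8 to 79.9%). All 10 member regions on chromosome 20 were of this kind, 5 in CDH4, 4 in CDH22 and 1 in CDH26. Without chromosome 20, 41 of 80 member regions were LGP2-only (51.2%, interval 39.8 to 62.6%), and 23 of 42 regions of classical cadherins (54.8%), in place of 32 of 51 (62.7%). Both intervals of the classical cadherins, 48.1 to 75.9% with chromosome 20 and 38.7 to 70.2% without it, held the 54.9% of all regions. For CDH4 and CDH22, the gene and the chromosome it lies on cannot be told apart.

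CDH1, the gene of E-cadherin, had 4 regions, 2 from each library, and reads of 3, 3, 4 and 0 with LGP2 against 1, 2, 5 and 5 with the vector in genomic order. The region nearest its start was LGP2-only (chr16:68735675-68736011), with 3 reads against 1, and had its centre about 1.4 kb before the gene. The region with 0 reads against 5 lay 75.9 kb into the gene, 978 bp from an internal transcript start (chr16:68813061-68813312). Its log2 ratio was -2.47, level with the smallest among the members; against the floor of 3 reads the region was at least 1.67-fold lower with LGP2. The regions at the start and far inside CDH1 were thus called in opposite libraries, each on 5 reads or fewer, and the Poisson intervals of the libraries overlapped at both.

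CDH2, the gene of N-cadherin, had 3 regions. Reads were 5 with LGP2 against 2 with the vector at 189.3 kb from the 5′ end (log2 ratio 1.15). Both vector-only regions had 0 reads against 3, in intron 2 and 194.5 kb upstream of the gene (log2 ratio -1.90 each). With both counts at or under the floor of 3 reads no fold is given for these regions. CDH3 (P-cadherin) and CDH15 (M-cadherin of muscle) had no region.

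Among the type II classical cadherins, 24 of 39 regions were LGP2-only. CDH18, a cadherin of the central nervous system, had 12 regions, more than any other member, and 8 of them were vector-only. Its LGP2-only regions had 4, 3, 5 and 2 reads with LGP2 against 0, 2, 2 and 1 with the vector. Its vector-only regions had 2 to 5 reads with the vector and 0 to 2 with LGP2, so that each library had the more reads at all of the regions called in it. The largest ratio was at chr5:19583621-19583964 in intron 7 (4 against 0 reads, log2 ratio 2.43), and the smallest at chr5:19901642-19901889 in intron 2 (0 against 4, log2 ratio -2.21). On chromosome 5 as a whole 55.2% of 1907 regions were LGP2-only, against 4 of 12 at CDH18.

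CDH22, a cadherin of the brain and pituitary on chromosome 20, had 4 LGP2-only regions. Reads were 6, 2, 5 and 4 with LGP2 against 1, 5, 1 and 3 with the vector, so 1 region that was called with LGP2 had fewer reads there (log2 ratio -0.85). The region with 6 against 1 lay in intron 1 at chr20:46263549-46263894 (log2 ratio 1.95). CDH11, the osteoblast cadherin that mesenchymal cells and gliomas also carry, had 4 regions, 2 from each library. Its highest was 6 against 1 reads (log2 ratio 1.95), 12.4 kb upstream of the gene at chr16:65135958-65136336, and a vector-only region with 0 against 2 reads followed 17.0 kb upstream.

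By the table's names CDH12 and CDH19 had 3 LGP2-only regions each and none from the vector library. At CDH12 reads were 5, 3 and 4 with LGP2 against 2, 0 and 2 with the vector; the region with 3 against 0 lay 318 bp from an internal transcript start (log2 ratio 2.10). By position the body of CDH12 held 2 further regions, both vector-only and assigned to non-coding genes, with 0 against 4 and 1 against 7 reads. At CDH19 all 3 lay 168.6 to 231.5 kb from the 5′ end, beyond the far end of the gene, with 3 reads each with LGP2 and 1 to 3 with the vector. CDH6, the kidney cadherin, carried regions of opposite libraries, with centres 5.36 kb apart, in its 3′ untranslated part. The first had 4 reads against 0 (chr5:31323310-31323684, log2 ratio 2.43) and the second 0 against 4 (chr5:31328704-31329012, log2 ratio -2.21). Another CDH6 region had 2 reads in each library and was called only with the vector.

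CDH5, the cadherin of endothelial cells, had an LGP2-only region with 6 against 2 reads about 2.0 kb before the gene (log2 ratio 1.38) and a vector-only region with 1 against 4 inside it (log2 ratio -1.19). CDH8 had 4 against 1 reads in both LGP2-only regions and 1 against 4 in the vector-only region. CDH9 had an LGP2-only region that overlapped a transcript start of the table, with 3 against 1 reads, 82.7 kb upstream of the RefSeq gene. CDH7, CDH10 and CDH20 had 1 LGP2-only region each, with 3 against 1, 4 against 3 and 2 against 1 reads. CDH24 had none.

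Of the other cadherins, CDH23 had 5 regions, all in introns. CDH23 and PCDH15 encode the upper and lower strands of the tip link that opens the transduction channel of hair cells. CDH23 had 3 vector-only regions with 0 against 4, 1 against 5 and 0 against 5 reads (log2 ratios -2.21, -1.44 and -2.47), and 2 LGP2-only regions with 3 against 1 and 5 against 1 (1.13 and 1.73). The region with 0 against 5 lay in intron 14 (chr10:71650105-71650391) and was at least 1.67-fold lower with LGP2 against the floor. The centres of a vector-only and an LGP2-only region lay 3.78 kb apart in intron 3. PCDH15 went the other way in the table, with 3 LGP2-only regions of 3, 4 and 3 reads against 2, 0 and 1; its largest log2 ratio was 2.43 at chr10:54816090-54816470.

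CDH13 encodes T-cadherin, which is held by a lipid anchor and has no cytoplasmic tail. Its 3 regions had their centres within 27.0 kb of each other near the 3′ end, with 5, 4 and 2 reads with LGP2 against 1, 1 and 3 with the vector. CDH26 had 1 region on chromosome 20 with 6 against 1 reads (log2 ratio 1.95), 3.4 kb upstream of the gene. CDH17, the liver and intestine cadherin, had 1 vector-only region with 2 against 3 reads. DSC3, the desmosomal cadherin of stratified epithelium, had 1 vector-only region with 0 against 3 reads in intron 1 (log2 ratio -1.90). CDH16 and the 6 other desmosomal genes were without a region in the table.

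The large relatives were evenly divided, 7 regions from each library. CELSR1, a seven-pass cadherin of planar cell polarity, had 4 regions in its body: 4 against 3, 3 against 5, 4 against 0 and 2 against 4 reads, LGP2 first. Its call and its reads disagreed at 2 regions, since the first was vector-only with more LGP2 reads and the second LGP2-only with fewer. The region with 4 against 0, in intron 3, had a log2 ratio of 2.43 (chr22:46436405-46436774). FAT3 had 4 against 1 reads in an LGP2-only region and 1 against 5 in a vector-only region with its centre 7.62 kb away (log2 ratios 1.46 and -1.44). DCHS1, a ligand of the FAT4 receptor, had 4 against 1 reads 1.2 kb inside its start (log2 ratio 1.46), and DCHS2 had 0 against 3 reads at both of its vector-only regions. FAT4 had 2 against 4 reads 249.7 kb upstream and 2 against 0 within the gene. CDHR3, a receptor of rhinovirus C, had 2 LGP2-only regions upstream with 4 against 3 and 3 against 0 reads (log2 ratios 0.48 and 2.10), and CDHR1, a photoreceptor cadherin, 2 against 5 reads.

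Protocadherins outside the clusters had 6 LGP2-only and 5 vector-only regions. Next to PCDH15, PCDH7 had 2 vector-only regions, with 0 against 3 reads 19.5 kb upstream (log2 ratio -1.90) and 4 against 3 in intron 2. PCDH8, which is taken up at active synapses, had regions on either side: 1 against 5 reads 4.2 kb upstream and 3 against 1 beyond its 3′ end (log2 ratios -1.44 and 1.13). PCDH9 had 2 against 0 and 2 against 3 reads, 783.0 kb apart within the gene. PCDH10 and PCDH20 had 1 region each, with 0 against 3 and 2 against 1 reads. PCDH1, PCDH12, PCDH17, PCDH18, PCDH19, PCDH11X and PCDH11Y were the 7 genes without a region.

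The clustered protocadherins lie in 3 arrays on chromosome 5, which together span 727.0 kb. Only PCDHA1, PCDHB5 and PCDHB6 were named in the table. PCDHA1 had 0 reads with LGP2 and 4 with the vector, 6.1 kb upstream of the array (chr5:140779868-140780140, log2 ratio -2.21, at least 1.33-fold lower against the floor). PCDHB5 had 1 against 3 reads upstream of its start (log2 ratio -0.87), and PCDHB6 had 7 against 2 reads 525 bp from its start (chr5:141150627-141150967, log2 ratio 1.58). PCDHB6 was the only member with a region within 1 kb of its own RefSeq start. By position, the arrays held further regions that the table gives to non-coding neighbours. The PCDHA array of 226.0 kb held 1 region, the PCDHB array of 198.0 kb held 5, and the PCDHG array of 182.0 kb held 2. In the PCDHG array both were vector-only and assigned to the pseudogene PCDHGB9P, with 0 against 6 and 1 against 2 reads; the first was at least 2.0-fold lower with LGP2 against the floor (log2 ratio -2.68). In the PCDHB array 3 of 5 were LGP2-only, among them 1 with 4 against 0 reads.

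The promoter of PCDHB5 is shown because 1 of the 3 clustered regions lies before it and because it carries a stretch that its neighbours share. Sequences are from RefSeq (GRCh38.p14). The 250 bases before the start, chr5:141134956-141135205 on the plus strand, hold 35.2% G and C and 4 CG pairs; the called region ends 1746 bp before the start (chr5:141133135-141133460). Capitals mark TGGCGCTG, which ends 6 bases before the start. Clustered protocadherin promoters are known to share a conserved element with a CGCT core, which the capitals include.
PCDHB5: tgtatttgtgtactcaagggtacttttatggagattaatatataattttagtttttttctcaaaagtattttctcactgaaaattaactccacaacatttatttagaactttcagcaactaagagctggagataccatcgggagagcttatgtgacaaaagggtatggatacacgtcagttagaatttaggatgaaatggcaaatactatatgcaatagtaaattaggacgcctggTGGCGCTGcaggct

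These 8 letters were chosen after the PCDHB5 sequence was seen. TGGCGCTG or its reverse complement CAGCGCCA occurred in the 250 bases of 12 of 52 promoter windows of clustered protocadherins (23.1%), of 1 of 56 windows of the other members (1.79%) and of 508 of all 35116 windows (1.45%). Of 14 PCDHB genes with a window, 11 held it, all in the sense direction. All 11 are set side by side to show which bases beside the 8 capitals are shared and which differ: most have acgc before them and cag after them, while PCDHB9 and PCDHB10 differ before and PCDHB3 and PCDHB7 after.
PCDHB2: agacgcggggTGGCGCTGcagccttaga
PCDHB3: gaacgcatggTGGCGCTGttgactaaga
PCDHB4: agacgcagggTGGCGCTGcaggctaagt
PCDHB5: ggacgcctggTGGCGCTGcaggct
PCDHB7: aaacgcaaggTGGCGCTGctggctaaaa
PCDHB16: gaacgcgtggTGGCGCTGcaggttaaga
PCDHB9: agccacaaggTGGCGCTGcagactgaag
PCDHB10: ggccacacggTGGCGCTGcaggctaaag
PCDHB12: agacgcgtggTGGCGCTGcaggataata
PCDHB13: ggacgcgtggTGGCGCTGcaggataaga
PCDHB15: caacgcatggTGGCGCTGcaggctaagg
Only PCDHB5 of these had a region in the table. None of the 12 windows with the 8 letters was overlapped by a region, so the shared stretch is a description of the genes and not of the reads.

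No called region overlapped any of the 108 promoter windows of members, each 250 bases before to 50 after a start, which were found for 85 of the 110 genes. Over all genes, 0.718% of 35116 windows were overlapped. At CDH4 the window of an internal start is shown because that start follows the region with 7 against 1 reads by 1766 bp. It spans chr20:61599511-61599760 on the plus strand, with 63.6% G and C and 12 CG pairs, against a median of 11 CG pairs in all promoters. Neither the letters above nor the E-box forms CAGGTG and CACCTG, which Snail and ZEB repressors read, occur in it; the E-box forms were found in 11.1% of member windows and 17.5% of all windows, and no E-box form lies within the 8 letters.
CDH4: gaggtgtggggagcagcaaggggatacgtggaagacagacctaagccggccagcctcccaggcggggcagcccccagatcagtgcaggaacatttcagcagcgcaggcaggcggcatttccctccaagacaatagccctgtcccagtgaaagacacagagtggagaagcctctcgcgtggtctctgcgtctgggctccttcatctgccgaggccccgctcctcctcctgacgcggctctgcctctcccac

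Within the gene models, 47 of the 90 regions lay in introns (52.2%, interval 41.4 to 62.9%), 19 were intergenic and 16 were annotated as promoter, a label that reaches 3 kb from any transcript start. Over coding-gene regions 47.8% were intronic and 27.1% promoter; the members' promoter share was 17.8% (interval 10.5 to 27.3%). Within 1 kb of a start the shares were 4.44% (4 regions, interval 1.22 to 11%) and 12.9%. The 4 were CDH1, CDH9, CDH12 and PCDHB6, of which 3 were LGP2-only. Only 5 of the 16 promoter regions lay within 3 kb of the 5′ end of the RefSeq gene; the others were annotated to other transcript starts. Of the intronic regions, 23 of 47 lay in introns 1 and 2 (48.9%), close to 46.7% over coding genes. The median distance to a transcript start was 14.6 kb, against 8.55 kb for coding-gene regions.

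Rates were compared by gene length with the table's gene names. Members outside the clusters held fewer regions per 100 kb than other coding genes in all but the class of 100 to 500 kb. Outside the clusters the rate was 0.623 regions per 100 kb (Poisson interval 0.499 to 0.768), against 0.963 in other coding genes. In genes of 100 to 500 kb, which held 40 of the 87 regions, the members had the higher rate, 1.12 (0.798 to 1.52) against 0.762. Under 100 kb and over 1000 kb the members' intervals held the rate of other coding genes. At 500 to 1000 kb the interval lay below it, 0.232 (0.106 to 0.441) against 0.633. That class held 5 member genes, of which 3 had a region. PCDH11X (843.9 kb) and PCDH11Y (741.9 kb) had none, and the rate without them was not computed, so the lower rate is not read as a trait of long members. The rates lay closer together when regions were counted by position inside the gene: 0.824 (0.680 to 0.988) against 1.07 per 100 kb. The length of PCDH11X and PCDH11Y, which had no region by position either, is part of the members' rate. The table assigns a region to a nearby transcript of any gene type, non-coding genes within a longer gene included. Of 120 regions inside a member gene, 57 were assigned to a gene that is no member: 38 to lncRNA genes, 11 to pseudogenes, 5 to miRNA genes and 3 to other small RNA genes.

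**Figure D3:**
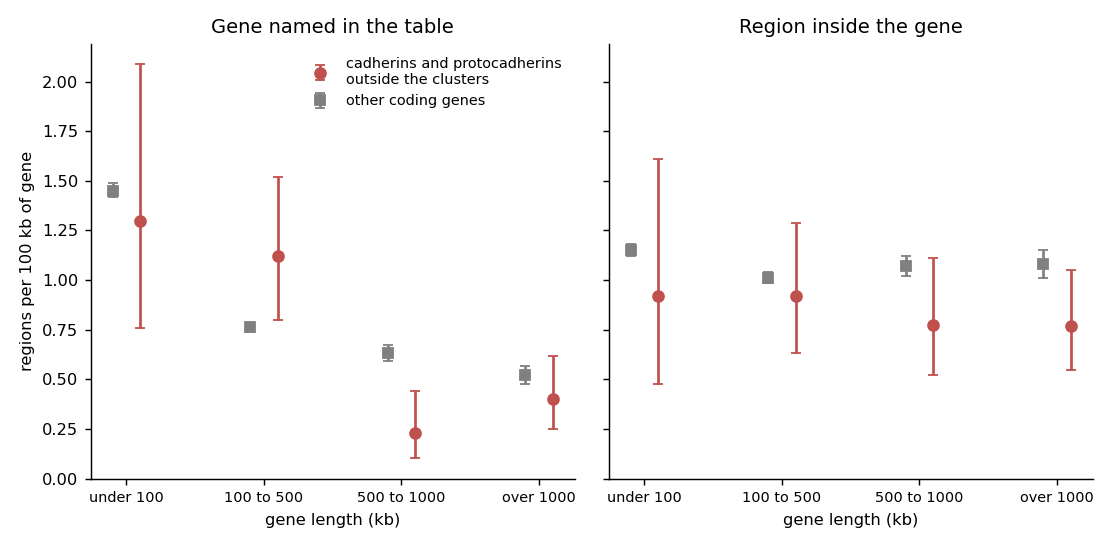
Regions per 100 kb of gene (y axis) by gene length (x axis, kb) for members outside the clusters (red) and other coding genes (grey), with the table's gene names on the left and by position inside the gene on the right; bars are Poisson 95% intervals. With the table's names the members lie above other coding genes at 100 to 500 kb (1.12 against 0.762) and below them in the other classes. By position the members run from 0.768 to 0.921 across the 4 length classes and other coding genes from 1.01 to 1.15. The class of 500 to 1000 kb includes PCDH11X and PCDH11Y, which had no region.

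Counted by position, CDH4, CDH18, FAT3, CDH13 and PCDH15 held more regions than the table names for them. PCDH11X and PCDH11Y had none by either count. CDH4 held 15 regions, 12 LGP2-only (80.0%) and 3 vector-only, close to the 76.9% LGP2-only of the other 748 regions of chromosome 20. The largest log2 ratio inside CDH4 was 3.13, and a neighbouring region had 2.32. Both were assigned to the lncRNA AL160412.1, 198.4 and 199.4 kb into CDH4, with 7 against 0 and 8 against 1 reads. The first was at least 2.33-fold higher with LGP2 against the floor. Their windows of 2 kb overlap, so the same reads may be counted in both. CDH18 held 14 regions, 4 LGP2-only and 10 vector-only (28.6% LGP2-only, interval 8.39 to 58.1%), and the part of the gene before its midpoint held 4 vector-only and 0 LGP2-only regions. Chromosome 5 had 55.2% LGP2-only, which lies within that interval.

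**Figure D4:**
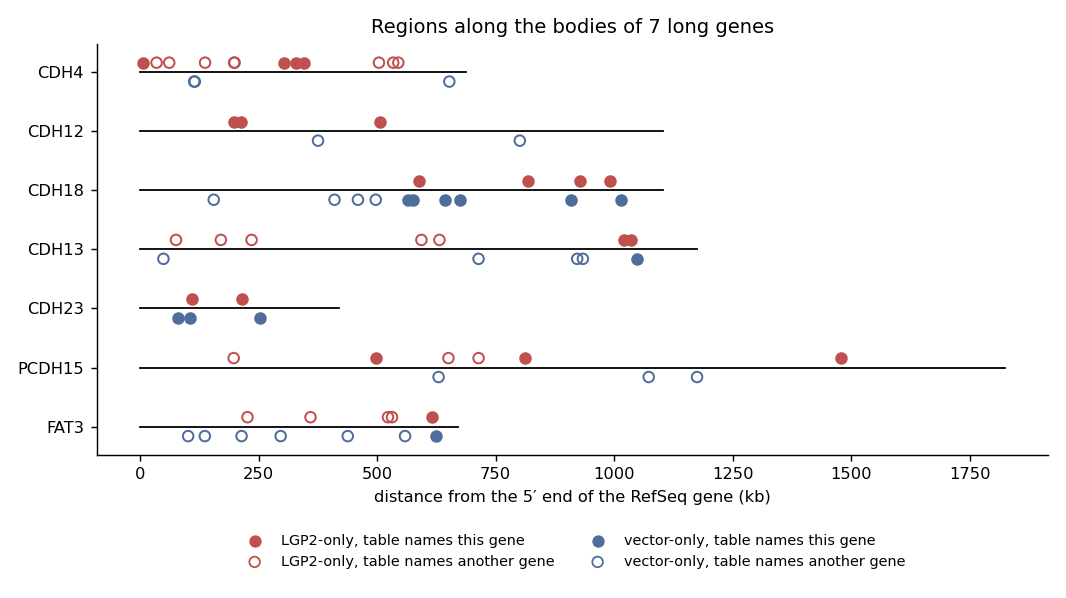
Regions along the bodies of 7 long genes, by distance from the 5′ end of the RefSeq gene (x axis, kb); lines span the genes, red circles above them are LGP2-only and blue circles below them vector-only regions, and open circles are regions that the table assigns to another gene. CDH4 carries 12 red and 3 blue circles, and CDH18 carries 4 red and 10 blue ones.

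FAT3 had 2 regions in the table and 12 by position, 5 LGP2-only and 7 vector-only. At 2 of the vector-only regions, assigned to AP000722.1 and the pseudogene RPS3AP42, reads were 0 with LGP2 against 5 with the vector. CDH13 had 3 in the table and 12 by position, with 7 LGP2-only, and PCDH15 had 3 and 9, with 6 LGP2-only. FAT1, the tumour suppressor of the FAT family, had no region in the table and 1 by position (1 against 3 reads), and so did DSG3 (4 against 1). Over all 120 regions inside member genes 51.7% were LGP2-only (interval 42.4 to 60.9%) and the median log2 ratio was 0.13, near the 54.9% and 0.15 of all regions.

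Among genes with 3 or more regions, CDH1 was the densest at 4.07 per 100 kb, followed by CDH22 at 2.97, CDH19 at 2.91, CELSR1 at 2.27 and CDH11 at 2.22. These densities divide the regions named in the table by the length of the gene. By position CDH1 and CELSR1 had the same values, CDH22 had 2.23, CDH11 had 1.11 and CDH19 had 0 regions. Of the 23 members with 2 or more regions, 15 had regions of both libraries, 6 had LGP2-only regions alone and 2 vector-only regions alone. The 6 were CDH4, CDH12, CDH19, CDH22, CDHR3 and PCDH15, and the 2 were DCHS2 and PCDH7. CDH4 and CDH22 are the pair on chromosome 20. The same split was not counted over all coding genes, so it is not read as a trait of the members. This split holds for the table's names alone: by position CDH4 had 3 vector-only regions, PCDH15 had 3 and CDH12 had 2, and PCDH7 had an LGP2-only region with 4 against 1 reads.

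Genes of proteins that work with cadherins were counted in the same way. Of 43 partner genes, 26 had 79 regions, 44 LGP2-only, 34 vector-only and 1 called in both, beside the 54.9% LGP2-only of all regions and the 34.2% of coding genes with a region. Gene length was not matched, and some partners are long, such as CTNNA3 with 1851 kb. Of other coding genes, 27.2% under 100 kb and 67.4% of 100 to 500 kb had a region, so the number of partners with one is not read as a trait. At least 2-fold higher with LGP2 were 17 and at least 2-fold lower 16, beside 29.5% and 25.2% of all regions, and the median log2 ratio was 0.13, beside 0.15. The 27 intracellular partners and processing enzymes held most of these, 66 regions in 18 genes. The catenin CTNND2 had 16 regions, 10 LGP2-only, but its most uneven region was vector-only with 0 reads against 8 (log2 ratio -3.04, at least 2.67-fold lower against the floor). CTNNA2 had 11, including the region called in both libraries (3 against 2 reads) and 1 with 8 reads against 0 in intron 2 (log2 ratio 3.30, at least 2.67-fold higher against the floor). At the regions with 0 against 8 and 8 against 0 reads, the Poisson intervals of the libraries overlapped. CTNNB1, the beta-catenin of the Wnt pathway, had 1 LGP2-only region with 2 against 1 reads. PLEKHA7, a linker of junctions to microtubules, had 4 vector-only regions and no other, with 3, 7, 2 and 2 reads with LGP2 against 7, 6, 4 and 5.

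Of 5 repressors of CDH1, SNAI1 and ZEB2 had regions. ZEB2 had 3 LGP2-only regions with 4 against 1, 4 against 1 and 6 against 0 reads, and 1 vector-only region with 2 against 3. The region with 6 against 0 lay within 1 kb of a transcript start (chr2:144513595-144513983, log2 ratio 2.93). It was at least 2.0-fold higher with LGP2 against the floor, and the Poisson intervals of the libraries overlapped at it. The vector-only region, with 2 against 3 reads, also lay within 1 kb of a transcript start. SNAI1 had 1 vector-only region on chromosome 20 with 3 against 5 reads. In the list of 11 Hippo and planar polarity partners, 6 of 8 regions were LGP2-only, beside 54.9% of all regions, with 1 at least 2-fold higher and 1 lower. Their median log2 ratio of 0.14 was close to the 0.15 of all regions. FJX1, which encodes a kinase-like partner of FAT and DCHS, had 2 of them.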

How the data were processed

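ChIP-seq regions of 2 libraries were taken from 1 deposited table. The authors called regions in each library and deposited, for each region, a normalized read density per library as a signal value, with the nearest gene, its type and the annotation. Further columns with their log2 ratio, mean level and p-value hold the authors' own comparison and were not used. The aligner, the caller, its threshold and any use of input in calling are not stated in the sources used here. The labels name mm10, a mouse build, but the positions are human and were read as GRCh38: 98.2% of coding-gene regions carried a symbol of RefSeq GRCh38.p14. Starts in the table count from 0, and 1 was added.

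Reads were recovered from the 2 densities. After a straight line in the mean log2 level (intercept 0.105, slope 0.0452) was removed, 100.0% of regions gave whole reads in both libraries (tolerance 0.02, largest deviation 0.000382), with 1 read added and a window of 2 kb inferred. The recovery was tested on data simulated with the same added read and window, so the test could not check these settings. How many reads each library held in all is unknown. Since the table holds signal of 1 library per group, values are descriptions with exact Poisson intervals for reads and Clopper-Pearson intervals for shares, at 95.0%. Gene bodies came from the RefSeq table, with an overlap of at least 1 bp, and promoter windows from its promoter sequences. Clusters are the span from the first to the last coding gene of each array.

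The text names CDH1 and CDH2, the 5 genes with the most regions in each family, the 10 largest and the 10 smallest log2 ratios, promoter regions within 1 kb, regions called in both libraries and the 5 densest genes; other members are given more briefly, and non-member regions inside members were named after their values were seen. Members, lists and rules were chosen with earlier results of these data known. Python 3.11.15, pandas 2.3.3, numpy 2.4.6, scipy 1.17.1 and matplotlib 3.10.9 were used.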

Additional observations from a re-analysis of the deposited data

How the results depend on the processing

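Of 33 alternative values of the shares and the median, 28 stayed within the counting error of the value reported. With at least 5 reads in the calling library, 23 regions were left. The share at least 2-fold higher was 56.5% in place of 36.7% and the median log2 ratio 1.15 in place of 0.48. Neither value was computed over all regions with the same filter, so neither is read as a trait of the members. With 5 reads added in place of 1, the shares at least 2-fold higher and lower were 2.22% each, and of the 20 named ratios 4 were at 2-fold exactly, the others were nearer to 0 and none changed direction. Regions per 100 kb in members relative to other coding genes, clusters included, were 0.490, and 0.818 by position inside the gene. Clustered genes overlap, so their shared length, and by position their shared regions, were counted once for each gene. Outside the clusters the ratios were 0.647 with the table's gene names and 0.77 by position. Both include the length of PCDH11X and PCDH11Y, which had no region. By position and without chromosome 20, a choice made after seeing the data, 45.5% of 101 regions were LGP2-only and the median log2 ratio was -0.16. The share lay just below the interval of the value reported, 45.8 to 67.1%, and the median stayed within its own, -0.27 to 0.75. The share over all regions off chromosome 20 was not computed, so the lower share is not read as a trait of the members. Within 1 kb, 0 LGP2-only and vector-only member regions lay near each other. No paired analysis was possible because each group had 1 ChIP library. The depth of 2 to 9 reads per region is too low to show a difference at any single member region.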
